A study of Mus musculus with 6 samples.

Results

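Ribosome densities of 10986 mRNAs were compared between the brain-labelled library, in which mRNAs of the small intestine dominated, and the kidney-labelled library, in which mRNAs of the colon did. Most digestive hydrolases, lipid absorption proteins, nutrient transporters and Paneth cell peptides were many-fold higher in the brain-labelled library. Many goblet cell products, most colonocyte markers and the sodium channel subunit Scnn1a were higher in the kidney-labelled library. So were most carbonic anhydrases and glycan-building enzymes compared, in lists drawn up after the values were seen. The 10986 were the mRNAs listed in both libraries with at least 10 reads in either, out of 18437 in all. The study applied Ribo-seq, in which the stretches of mRNA covered by ribosomes are sequenced, to 6 tissues of untreated wild-type C57BL/6J mice 4 weeks old, and each tissue label had 1 library. The labels of the comparison are brain and kidney, those of the other libraries colon, heart, lung and small intestine. Values are RPKM, which divides the reads of a coding sequence (CDS) by its length and by the total of the library, rescaled here with Kri1 left out of every total because this 1 mRNA took 22.1% of the reads of the kidney-labelled library and 2.01% of those of the brain-labelled one. Since each side was 1 library, differences had no replicate check and were not tested, and the values describe these 2 libraries. Ribosome density joins the amount of an mRNA with how densely it is translated, and fewer cells of a type and less RNA per cell cannot be told apart in bulk tissue.

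The small intestine digests and absorbs. Its enterocytes carry hydrolases and transporters on a brush border and package dietary fat into lipoproteins, and Paneth cells at the crypt base secrete antimicrobial peptides. The colon recovers salt and water and keeps bacteria at a distance with a thick mucus made by goblet cells, and it has few Paneth cells in the mouse. Along the gut, GATA, HNF4 and CDX factors and the Hox genes mark position.

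The labels went against the markers. Snap25, a synaptic protein, had 0.776 RPKM in the brain-labelled library against 795 RPKM in the small-intestine-labelled library, and Umod, the kidney's uromodulin, had 14.0 RPKM in the kidney-labelled library against 17635 RPKM in the colon-labelled library. Apoa4, the apolipoprotein of the small intestine's chylomicrons, had 3437 RPKM in the brain-labelled library and 35.3 RPKM in the kidney-labelled one. Muc2, the gel-forming mucin of goblet cells, had 608 RPKM in the brain-labelled library and 3193 RPKM in the kidney-labelled one. Each library is therefore named by its GEO label throughout, with its leading genes standing for what it held.

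The sequences that carry the comparison come from 3 places. The first is a pair of short pentraxin genes on chromosome 1, Mptx1 and Mptx2, which were at opposite ends of the comparison although their CDSs, each of 657 bases, differ at only 53 bases. Their first 90 coding bases in GENCODE M39 (GRCm39) are shown with the only base that differs in capitals. Mptx1 lies on the plus strand at chr1:174158084-174160439 and Mptx2 on the minus strand at chr1:173101949-173105344.
Mptx1: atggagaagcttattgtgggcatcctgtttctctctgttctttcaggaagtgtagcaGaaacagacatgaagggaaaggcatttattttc
Mptx2: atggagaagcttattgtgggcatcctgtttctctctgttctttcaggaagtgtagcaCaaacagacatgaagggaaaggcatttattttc

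The second is a pair of alpha-defensins, Defa21 (chr8:21515557-21516533, plus strand) and Defa24 (chr8:22224506-22225490, plus strand), the antimicrobial peptides of Paneth cells. Their CDSs of 279 bases were 78.5% identical, and most of the difference lay at the end that encodes the mature peptide. Coding bases 190 to 279 are shown with the 38 differing bases in capitals, because reads that fitted more than 1 mRNA were left out and these stretches are where such genes can be told apart.
Defa21: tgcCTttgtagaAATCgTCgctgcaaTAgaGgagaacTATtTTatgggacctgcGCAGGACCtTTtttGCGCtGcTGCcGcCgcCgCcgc
Defa24: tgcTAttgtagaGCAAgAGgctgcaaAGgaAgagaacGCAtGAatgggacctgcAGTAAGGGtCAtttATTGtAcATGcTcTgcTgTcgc

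The third is the 250 bases upstream of the transcript start of 3 genes, taken from GRCm39 and written 5′ to 3′ on the gene's strand. Lct (chr1:128256056-128256305, minus strand) and Fabp6 (chr11:43492470-43492719, minus strand) were among the highest in the brain-labelled library, and Muc2 (chr7:141276333-141276582, plus strand) was higher in the kidney-labelled library. Capitals mark matches, on either strand, to the motifs AGATAA for GATA factors, CAAAGTCC for HNF4, TTTATG for CDX factors and TGANTCA for AP-1, none of which contains another.
Lct: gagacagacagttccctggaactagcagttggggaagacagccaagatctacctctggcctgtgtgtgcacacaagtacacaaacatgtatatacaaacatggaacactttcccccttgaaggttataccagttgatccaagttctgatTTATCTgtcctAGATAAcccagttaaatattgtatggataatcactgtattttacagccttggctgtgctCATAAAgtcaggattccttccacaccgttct
Fabp6: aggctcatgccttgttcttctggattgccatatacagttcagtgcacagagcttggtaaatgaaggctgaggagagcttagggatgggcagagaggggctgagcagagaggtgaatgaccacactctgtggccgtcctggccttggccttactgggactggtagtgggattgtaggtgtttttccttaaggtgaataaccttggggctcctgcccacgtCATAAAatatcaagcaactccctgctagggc
Muc2: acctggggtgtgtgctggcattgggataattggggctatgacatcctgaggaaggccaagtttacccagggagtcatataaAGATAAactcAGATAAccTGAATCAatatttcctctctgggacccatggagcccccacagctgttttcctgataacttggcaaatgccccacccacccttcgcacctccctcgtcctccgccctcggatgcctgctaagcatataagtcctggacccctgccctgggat

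In Lct the GATA letters stood 101 and 90 bases before the start and the CDX letters 31 bases before it. Fabp6 held the CDX letters at the same distance, 31 bases. Muc2 held the GATA letters at 169 and 159 bases and the AP-1 letters at 151 bases. Such matches are descriptions of letters and not of binding.

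The brain-labelled library held 10635031 reads on CDSs and the kidney-labelled library 7583374, in a series that ranged from 4504853 to 10635031. Over the 10986 mRNAs the log2 ratio of RPKM + 1, labelled brain over labelled kidney, had a median of -0.08 (95% interval of the median -0.12 to -0.05) and an SD of 1.60. Of these mRNAs 2092 (19.0%) were at least 2-fold higher in the brain-labelled library and 2860 (26.0%) at least 2-fold higher in the kidney-labelled library, and 6034 (54.9%) lay within 2-fold. Each count of list members below stands beside these shares, 19.0% and 26.0%. At the 8-fold limit the counts were 252 and 519. The balance between both sides depended on the scaling: with Kri1 kept in the totals the median shifted by 0.29 to 0.21, and 2845 mRNAs were higher in the brain-labelled library against 2265 (55.7% of those past 2-fold, in place of 42.3%). It depended also on weakly read mRNAs, since with at least 100 reads in either library 1663 were higher in the brain-labelled library and 1428 in the kidney-labelled one.

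Both groups were chosen by the ratio of these same reads, so their shares of reads differ by construction and only the sizes inform. The 2092 mRNAs higher in the brain-labelled library took 36.1% of its reads and 7.41% of those of the kidney-labelled library, and the 2860 higher in the kidney-labelled library took 37.6% of its reads and 10.3% of the other's. An mRNA entered by its reads in the compared libraries, a choice that the other 4 did not share. Across the 10986 mRNAs the log2 levels of both libraries correlated with a Pearson r of 0.75 and a Spearman rho of 0.73. The r was 0.45 to 0.63 between the brain-labelled library and the other 4, and 0.57 to 0.68 between the kidney-labelled library and the other 4. The libraries labelled colon and heart had an r of 0.71 with each other, not far below 0.75. These are correlations across mRNAs of 1 library each, and mRNAs are not independent replicates.

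**Figure D1:**
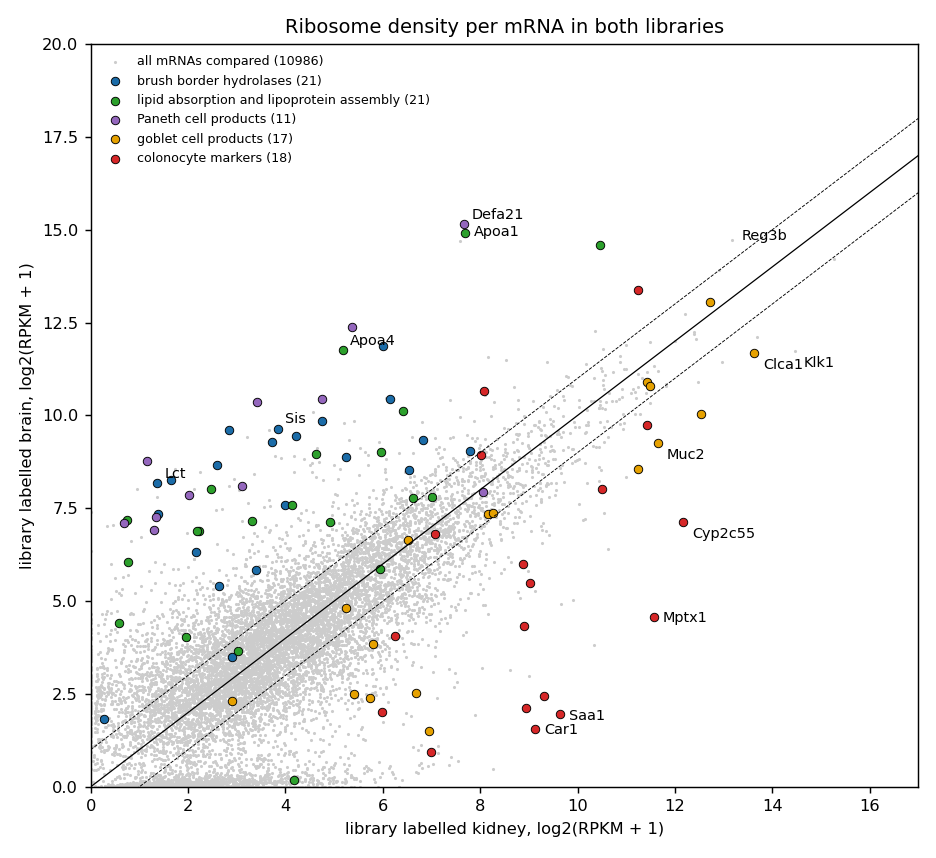
Ribosome density of the 10986 mRNAs in the kidney-labelled library (x axis) and the brain-labelled library (y axis), both as log2(RPKM + 1), with the solid line at equal density, dashed lines at 2-fold and 5 gene lists in colour. Brush border hydrolases and Paneth cell products lie above the lines except for Enpp3 and Ang4, and colonocyte markers mostly below, with Car1 and Saa1 farthest to the lower right.

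Brush border hydrolases, the enzymes that finish digestion at the enterocyte surface, were higher in the brain-labelled library in 20 of 21 members compared, with a median log2 ratio of 4.31 beside -0.08 over all mRNAs. Lct, the milk sugar enzyme lactase, had 289 RPKM in the brain-labelled library from 17416 reads and 1.58 RPKM in the kidney-labelled one from 54 reads. Its log2 ratio of 6.81 (95% interval 6.56 to 7.05, for counting error only) was the highest of the list. Sis, sucrase-isomaltase, had 795 RPKM against 13.4 RPKM (log2 ratio 5.79). Anpep, aminopeptidase N, was the most densely translated member at 3766 RPKM against 63.6 RPKM (log2 ratio 5.87). Both sugar-splitting and peptide-splitting enzymes were thus far apart, and so was Enpp7, the alkaline sphingomyelinase, at 772 RPKM against 6.20 RPKM.

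Not every hydrolase was equally far apart. Cndp2, a dipeptidase, had 1399 RPKM against 69.8 RPKM, and Naaladl1, a peptidase, had 916 RPKM against 25.8 RPKM. The meprin subunit Mep1a differed less, at 530 RPKM against 221 RPKM (log2 ratio 1.26), and Enpp3, a nucleotide hydrolase, least of all, at 10.2 RPKM against 6.46 RPKM (log2 ratio 0.58). Tmprss15, the enteropeptidase that activates trypsinogen, was listed only in the kidney-labelled library, with 18 reads. The whole list took 3.69% of the reads of the brain-labelled library and 0.199% of those of the kidney-labelled one.

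Lipid absorption and lipoprotein assembly was higher in the brain-labelled library in 17 of 21 members, with a median log2 ratio of 3.83. Apoa1, the main protein of high-density lipoprotein, had 30907 RPKM against 204 RPKM and by itself took 2.45% of the reads of the brain-labelled library. Fabp2, the intestinal fatty acid binding protein, had 24515 RPKM against 1406 RPKM (log2 ratio 4.12). Apoa4 had a log2 ratio of 6.57 (95% interval 6.39 to 6.75). The steps from uptake to export were all represented, with log2 ratios of 6.45 for Npc1l1, the cholesterol importer, 4.70 for Mogat2, which rebuilds diacylglycerol, 3.84 for Dgat1, which completes triglyceride, 5.55 for Mttp, which loads lipid onto the nascent particle, and 4.33 for Apob, its scaffold.

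Scarb1, a lipoprotein receptor, was the list's exception. It had 0.126 RPKM in the brain-labelled library, from 2 reads, and 17.1 RPKM in the kidney-labelled one, from 154 reads (log2 ratio -4.01, 95% interval -4.17 to -3.60). Its level in the other 4 libraries was 4.37 to 39.6 RPKM, so the brain-labelled library was the low one among all 6. Plin2, a lipid droplet coat protein, had nearly the same level in both, at 56.8 RPKM and 60.0 RPKM.

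Nutrient transporters were higher in the brain-labelled library in 17 of 21 members, with a median log2 ratio of 3.01. Slc6a19, the neutral amino acid transporter, had 352 RPKM against 3.74 RPKM (log2 ratio 6.22). Slc28a2, a nucleoside transporter, had 883 RPKM against 35.8 RPKM, with 51.1% of its 29-base stretches found only once among the mRNAs. The sodium-glucose transporter Slc5a1 had 670 RPKM against 166 RPKM (log2 ratio 2.01), and the peptide transporter Slc15a1 had 510 RPKM against 79.8 RPKM (log2 ratio 2.66). The smallest value was that of the folate transporter Slc46a1, with 8.29 RPKM against 9.35 RPKM and an interval of the log2 ratio, -0.54 to 0.24, that included 0.

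These transporters are also used by the kidney. Of the 21, 8 were higher still in the colon-labelled library, in which kidney mRNAs were high, among them Slc7a8, an amino acid transporter, at 1028 RPKM and 492 RPKM in the brain-labelled library. The list of kidney epithelium itself was higher in the brain-labelled library than in the kidney-labelled one in 12 of 13 members, with Umod at 458 RPKM against 14.0 RPKM. The 18 kidney epithelium mRNAs with at least 100 reads in the colon-labelled library had a median of 1.74% of that level in the brain-labelled library and 0.0853% in the kidney-labelled library. The part of this kidney signal in the transporter values was not tested.

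Uptake of bile acid and vitamin B12, a task of the ileum, was represented by 7 mRNAs, of which 6 were higher in the brain-labelled library. Fabp6, the ileal bile acid binding protein, had 26623 RPKM against 191 RPKM (log2 ratio 7.12, 95% interval 6.98 to 7.26). Slc10a2, which imports bile acid, had 139 RPKM against 21.1 RPKM, and both subunits of its basolateral partner were also higher, Slc51a at 338 RPKM against 44.7 RPKM and Slc51b at 476 RPKM against 12.8 RPKM. Cubn, the receptor for intrinsic factor with vitamin B12, had 275 RPKM against 6.19 RPKM. Nr1h4, the bile acid receptor FXR, had 98.6 RPKM against 70.4 RPKM, and Fgf15, the hormone it controls, was listed only in the brain-labelled library, with 145 reads.

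Paneth cell products were the list farthest toward the brain-labelled library, with a median log2 ratio of 5.92 and 10 of 11 members past 2-fold. Defa21 was the most densely translated mRNA of that library, at 36330 RPKM against 203 RPKM (log2 ratio 7.48, 95% interval 7.32 to 7.64). Defa24 had 5370 RPKM against 40.1 RPKM. Itln1, a lectin that binds microbial glycans, had 1395 RPKM against 25.8 RPKM, and Defa39 had 1308 RPKM against 9.73 RPKM. Defa40 had the highest log2 ratio of all mRNAs compared, 7.62, but from 2 reads in the kidney-labelled library, with a 95% interval of 6.34 to 8.57.

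The defensin levels depend on which reads could be placed. Only 23.1% of the 29-base stretches of the Defa21 CDS and 39.4% of those of Defa24 are unique, occurring once among all mRNAs of the series. Reads from repeated stretches were left out to an extent that is not known, and the level of a single defensin is uncertain. Lyz1, the Paneth cell lysozyme, had 152 RPKM against 1.53 RPKM with 59.4% of its stretches unique. Ang4, an antimicrobial ribonuclease, did not share the pattern, at 245 RPKM and 266 RPKM (log2 ratio -0.12, 95% interval -0.26 to 0.02). Mmp7, the protease that activates defensin precursors, had 272 RPKM against 7.61 RPKM.

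Reg lectins, bactericidal proteins of the epithelium, were high in both libraries. Reg3b had 26802 RPKM in the brain-labelled library and 9260 RPKM in the kidney-labelled one (log2 ratio 1.53), and Reg3g 4914 RPKM against 1305 RPKM. Reg4 had the opposite sign, at 157 RPKM against 221 RPKM (log2 ratio -0.49).

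**Figure D2:**
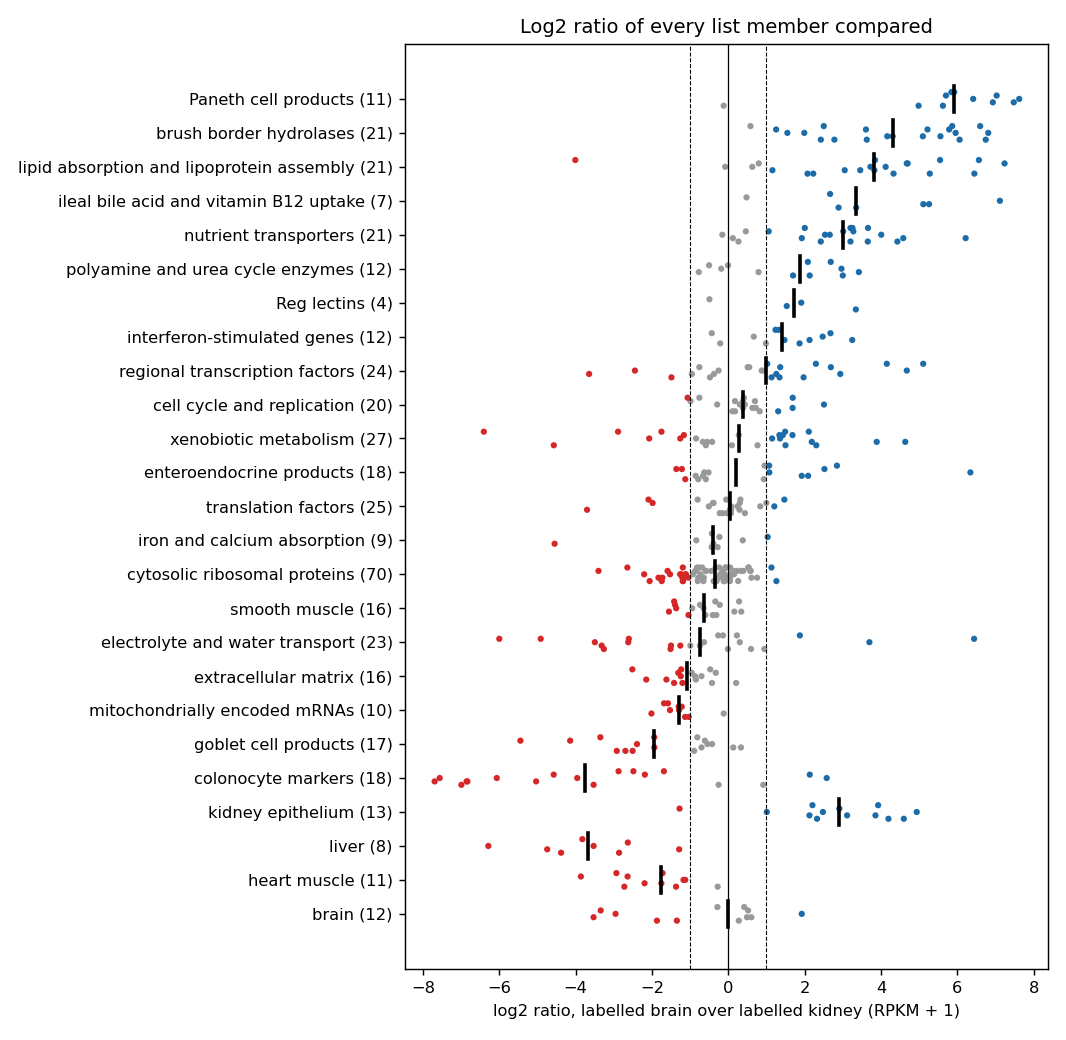
Log2 ratio of RPKM + 1, labelled brain over labelled kidney, of every member compared in the gene lists named at the left (number of members in brackets), with the median of each list as a bar, dashed lines at 2-fold, and members past 2-fold in blue (brain-labelled higher) or red (kidney-labelled higher). Paneth cell products have the highest median, 5.92, and colonocyte markers the lowest, -3.74.

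Goblet cell products were shared but unequal. None of 17 members was at least 2-fold higher in the brain-labelled library, beside 19.0% of all mRNAs. In the kidney-labelled one 9 were at least 2-fold higher, beside 26.0%, with a median log2 ratio of -1.94. Clca1, a secreted mucus-processing protein, had 3304 RPKM against 12662 RPKM, and took 3.47% of the reads of the kidney-labelled library. Muc2 had a log2 ratio of -2.39, and Guca2a, the guanylin peptide that sets chloride secretion, had 1047 RPKM against 5943 RPKM (log2 ratio -2.50). Muc13, a membrane mucin, was a little higher on the other side, at 8465 RPKM against 6716 RPKM (log2 ratio 0.33), and Fcgbp, a mucus crosslinking protein, had 1894 RPKM against 2763 RPKM.

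Some goblet cell genes separated the libraries more sharply. Retnlb, an antibacterial peptide, had 1.83 RPKM from 6 reads in the brain-labelled library against 122 RPKM in the kidney-labelled one (log2 ratio -5.44, 95% interval -6.22 to -4.60). The bestrophin channel Best2 with 725 reads, the goblet cell factor Spdef with 84 reads and B3gnt6, which builds the core 3 structure of mucin glycans, with 103 reads were listed only in the kidney-labelled library. So were 1360 mRNAs in all with at least 10 reads, against 140 listed only in the brain-labelled one. Atoh1, the factor that commits cells to secretory fates, had nearly equal levels of 99.3 RPKM and 90.5 RPKM. As a list, goblet cell products took 4.84% of the reads of the brain-labelled library and 11.7% of those of the kidney-labelled one.

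Enzymes that build mucin-type glycans were gathered into a list after the values were seen. Of 26 compared, 16 were at least 2-fold higher in the kidney-labelled library and 3 in the brain-labelled one, beside 26.0% and 19.0% of all mRNAs. B3galt5, a galactosyltransferase, had 4.47 RPKM against 631 RPKM (log2 ratio -6.85), and Fut2, which adds the terminal fucose of blood group H, had 4.79 RPKM against 101 RPKM (log2 ratio -4.14). St3gal4, a sialyltransferase, stood on the other side, with 458 RPKM against 144 RPKM.

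Colonocyte markers were at least 2-fold higher in the kidney-labelled library in 14 of 18 members, beside 26.0% of all mRNAs. Their median log2 ratio was -3.74. As a list they took similar shares of reads, 1.80% in the brain-labelled library and 2.23% in the kidney-labelled one. Cyp2c55, a cytochrome P450 of the colon, had 140 RPKM against 4618 RPKM (log2 ratio -5.03, 95% interval -5.09 to -4.97). Car1, a carbonic anhydrase of the colon surface, had 1.96 RPKM from 16 reads against 557 RPKM (log2 ratio -7.56). Saa1, a serum amyloid also made in colon epithelium, had 2.88 RPKM against 801 RPKM, the lowest log2 ratio of the list at -7.69, with 62.7% of its stretches unique. Ceacam1, an adhesion receptor, had 852 RPKM against 2742 RPKM, with 54.6% of its stretches unique. Aqp8, the water channel of surface colonocytes, was listed only in the kidney-labelled library, with 731 reads and 158 RPKM.

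The members at least 2-fold higher on the other side were Krt20 and Tmigd1, and Ceacam20, an adhesion protein of the brush border, was higher there within 2-fold, at 487 RPKM against 257 RPKM (log2 ratio 0.92). Krt20, a keratin of differentiated epithelium, had 10559 RPKM in the brain-labelled library and 2401 RPKM in the kidney-labelled one (log2 ratio 2.14). By itself Krt20 took 1.37% of the reads of the brain-labelled library, most of the share of the list there. Tmigd1, a brush border adhesion protein, had 1614 RPKM against 269 RPKM (log2 ratio 2.58).

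Mptx1, one of the pentraxins shown above, had 22.9 RPKM in the brain-labelled library and 3039 RPKM in the kidney-labelled one, a log2 ratio of -6.99 (95% interval -7.22 to -6.77). Mptx2, the other pentraxin shown, had 374 RPKM against 2.32 RPKM, a log2 ratio of 6.82 (95% interval 6.11 to 7.51). In both genes 76.3% of the 29-base stretches were unique. Mptx2 was named after its value was seen.

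Other families were split in the same way, and these too were drawn up after the values were seen. Among the calcium-activated chloride channel regulators, Clca4b had 773 RPKM against 11.7 RPKM (log2 ratio 5.93) while Clca1 had a log2 ratio of -1.94. Among the Slc26 anion exchangers, Slc26a6 had 222 RPKM against 1.56 RPKM (log2 ratio 6.44) while Slc26a3, the chloride-bicarbonate exchanger of the colon, had 63.5 RPKM against 472 RPKM (log2 ratio -2.87). Among the tight junction claudins, Cldn15, which forms a sodium pore, had 665 RPKM against 227 RPKM while Cldn8, a sodium barrier, had 23.6 RPKM against 165 RPKM. Of 9 carbonic anhydrases compared, 7 were at least 2-fold higher in the kidney-labelled library, and Car13 alone was at least 2-fold higher on the other side, at 173 RPKM against 45.9 RPKM.

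Electrolyte and water transport had 10 of 23 members at least 2-fold higher in the kidney-labelled library and 3 in the brain-labelled one. The shares of all mRNAs were 26.0% and 19.0%. Atp1b1, a subunit of the sodium pump, was nearly level at 4085 RPKM and 4108 RPKM. The channels and exchangers of salt recovery were not. Scnn1a, a subunit of the epithelial sodium channel, had 8.00 RPKM against 53.7 RPKM (log2 ratio -2.60), Slc9a3, the sodium-proton exchanger, had 2.75 RPKM against 41.2 RPKM (log2 ratio -3.49), and Atp12a, the colonic proton pump, had 0.185 RPKM from 6 reads against 74.7 RPKM (log2 ratio -6.00). Hsd11b2, the enzyme that protects the aldosterone receptor from cortisol-like steroids, had no reads in the brain-labelled library and 199 in the kidney-labelled one, at least 117-fold higher taking 3 reads as the floor. The secretory cotransporter Slc12a2 had 214 RPKM against 611 RPKM. Slc16a1, a transporter of short-chain fatty acids and lactate, had 109 RPKM against 676 RPKM.

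Transcription factors of gut regions had 12 of 24 members at least 2-fold higher in the brain-labelled library and 3 in the kidney-labelled one. The shares of all mRNAs were 19.0% and 26.0%. Gata5 had 47.9 RPKM from 605 reads against 0.419 RPKM from 3 reads (log2 ratio 5.11, 95% interval 4.45 to 5.50), and Gata4 7.09 RPKM from 98 reads against 0.255 RPKM from 2 reads (log2 ratio 2.69). Their relative Gata6 had 40.6 RPKM against 17.9 RPKM (log2 ratio 1.14), so the 3 GATA factors shared a sign and differed in size. Hnf4g had 404 RPKM against 21.8 RPKM (log2 ratio 4.15), whereas its paralog Hnf4a had 137 RPKM against 93.0 RPKM (log2 ratio 0.55). Creb3l3, an activator of apolipoprotein genes, had 118 RPKM against 3.65 RPKM.

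On the other side, Pparg, a lipid-sensing nuclear receptor, had 0.0633 RPKM from 1 read against 12.3 RPKM from 110 reads (log2 ratio -3.64), and Foxa1 had 3.49 RPKM against 11.6 RPKM (log2 ratio -1.49). The general intestinal factors were closer together. Cdx2 had 53.1 RPKM against 21.6 RPKM (log2 ratio 1.26), while Cdx1 had 7.88 RPKM against 11.4 RPKM with an interval of the log2 ratio, -0.97 to 0.02, that included 0. Klf5 and Elf3, broad epithelial factors, were the most densely translated of the list and had log2 ratios of 0.94 and 0.51. Further log2 ratios were 2.30 for Esrrg (56 reads and none), 1.97 for Ppara, 1.34 for Isx, 1.02 for Nr1i2, -0.25 for Foxa3, -0.37 for Klf4, -0.76 for Sox9 and -0.95 for Foxa2.

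The group 13 Hox genes, at the posterior end of the clusters, were read mainly in the kidney-labelled library. Of 38 Hox mRNAs in the series, 11 were compared, 7 were listed in only 1 of both libraries with at least 10 reads, and 20 were under the minimum. Hoxa13 had 0.0829 RPKM from 1 read in the brain-labelled library and 15.8 RPKM from 108 reads in the kidney-labelled one (log2 ratio -3.96, 95% interval -4.08 to -3.47), and it was listed in none of the other 4 libraries. Hoxb13 with 88 reads and Hoxd13 with 23 reads were listed only in the kidney-labelled library. The 3 group 13 genes read at all in either library, which pattern the hindgut, were on 1 side. For Hoxb13 and Hoxd13 this rests on being listed in 1 library only. With at least 10 reads, 1360 mRNAs were listed only in the kidney-labelled library and 140 only in the brain-labelled one. Their side therefore does not set these 2 genes apart.

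Some middle Hox genes were close together. Hoxb9, the most densely translated of the family, had 101 RPKM against 118 RPKM (log2 ratio -0.22), and the log2 ratios of Hoxb6, Hoxb7 and Hoxa7 were -0.03, 0.08 and -0.21, with intervals that included 0. Hoxb8 had a log2 ratio of -0.78. Hoxc4, Hoxb2, Hoxc8 and Hoxd8 were higher in the brain-labelled library, with log2 ratios of 2.36, 2.32, 2.07 and 1.49 from 39 to 76 reads there, and Hoxc6 was listed only there, with 47 reads. Hoxb5 was on the other side at a log2 ratio of -2.43, from 1 and 24 reads, and Hoxa6, Hoxa9, Hoxa10 and Hoxc5 were listed only in the kidney-labelled library with 14 to 21 reads. Values from so few reads carry wide counting error, and with a pseudocount of 5 RPKM 0 of the 11 were at least 2-fold higher in the brain-labelled library.

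**Figure D3:**
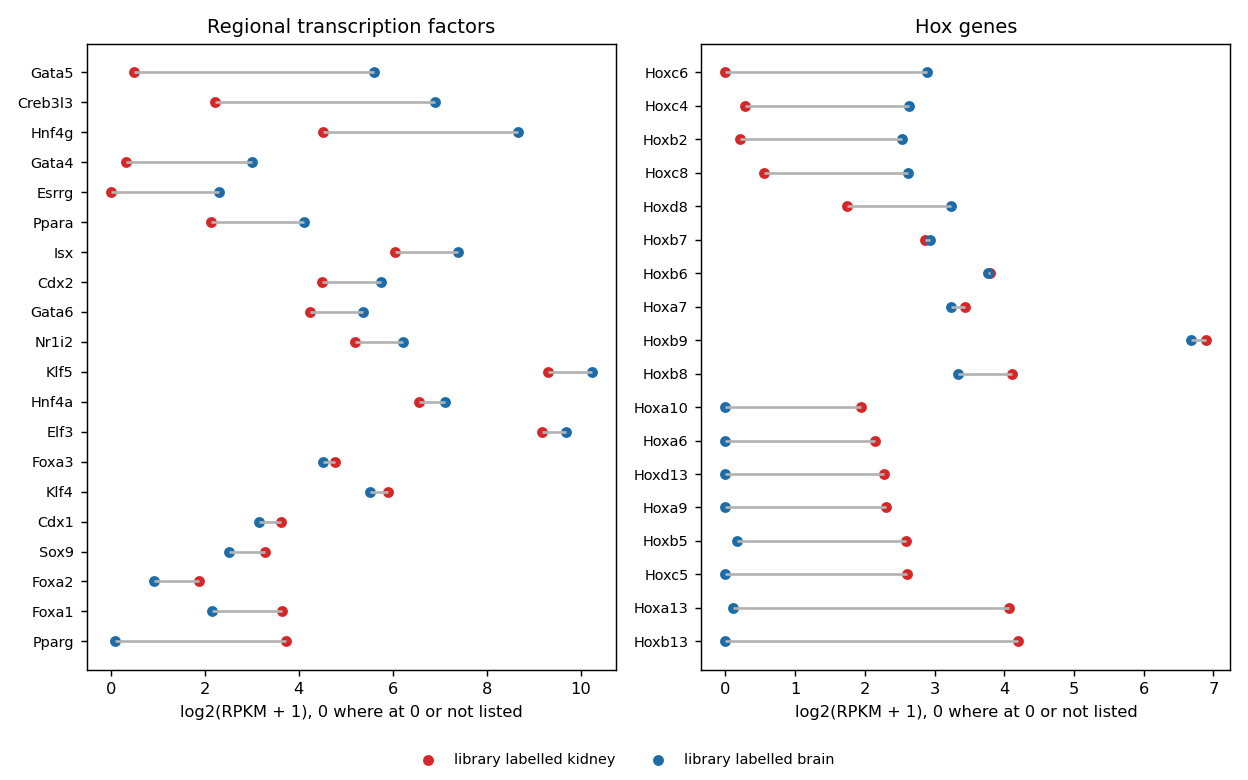
Density as log2(RPKM + 1), set to 0 where an mRNA had no reads or was not listed, of regional transcription factors (left panel) and each Hox gene with at least 10 reads (right panel) in the brain-labelled library (blue) and the kidney-labelled library (red). Gata5, Creb3l3 and Hnf4g have the widest gaps toward the brain-labelled library and Pparg toward the kidney-labelled library, while Hoxa13 and Hoxb13 lie near or at 0 in blue.

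Hormones of enteroendocrine cells differed one by one. Of 18 members, 7 were at least 2-fold higher in the brain-labelled library and 3 in the kidney-labelled one, beside 19.0% and 26.0% of all mRNAs. Gip, an incretin of the upper small intestine, had 361 reads in the brain-labelled library and none in the kidney-labelled one, at least 68.2-fold higher. Nts, neurotensin, had 114 RPKM against 15.0 RPKM, and Cck, cholecystokinin, had 55.6 RPKM against 13.9 RPKM. Gcg, the precursor of the glucagon-like peptides, was higher on the other side, at 56.7 RPKM against 125 RPKM (log2 ratio -1.13), and Pyy, peptide YY, had 34.6 RPKM against 63.2 RPKM (log2 ratio -0.85). Insl5, a hormone of distal colon cells, was listed only in the kidney-labelled library, with 166 reads. The granule proteins common to these cells were higher in the kidney-labelled library, with Chgb at 678 RPKM against 1572 RPKM and Chga at 435 RPKM against 672 RPKM.

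Stem and progenitor genes had no common direction, with 3 of 11 at least 2-fold higher in the brain-labelled library and 4 in the kidney-labelled one. The shares of all mRNAs were 19.0% and 26.0%. Olfm4, a secreted protein of small intestinal crypts, had 257 RPKM from 4327 reads against 0.944 RPKM from 9 reads (log2 ratio 7.05, 95% interval 6.53 to 7.50). Lgr5, the stem cell receptor of both segments, had 5.08 RPKM against 2.80 RPKM (log2 ratio 0.68). Ephb2, a receptor of the crypt, had the lowest log2 ratio, -2.02, and Cd44, an adhesion receptor, had 31.6 RPKM against 128 RPKM.

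Enzymes of the glutamine, ornithine and urea pathways were at least 2-fold higher in the brain-labelled library in 7 of 12 members. None was so in the kidney-labelled one. Over all mRNAs the shares were 19.0% and 26.0%. Oat, ornithine aminotransferase, had 2890 RPKM against 369 RPKM (log2 ratio 2.97). Cps1 and Otc, which make citrulline, had log2 ratios of 2.69 and 2.09. Ass1, which uses citrulline, was level at 152 RPKM and 153 RPKM.

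Defence and immune genes varied from list to list. Interferon-stimulated genes were at least 2-fold higher in the brain-labelled library in 8 of 12 members, with Isg15 at 132 RPKM against 13.0 RPKM (log2 ratio 3.25) and Irgm1 at 152 RPKM against 76.2 RPKM (log2 ratio 0.99). Ccl25, the chemokine that draws lymphocytes to the small intestine, had 1086 RPKM against 22.8 RPKM (log2 ratio 5.52), and Ccl28, a mucosal chemokine, had 247 RPKM against 618 RPKM (log2 ratio -1.32). Antigen presentation had 2 of 14 members at least 2-fold higher in the brain-labelled library and 3 in the kidney-labelled one. Macrophages and mast cells had 3 and 4 of 11, and T and NK cells 1 and 2 of 5. The shares of all mRNAs were 19.0% and 26.0%, so such small counts set none of these lists apart. Both chemokines were picked after their values were seen. Of 5 B and plasma cell genes compared, 4 were higher in the brain-labelled library, among them Mzb1, an antibody chaperone, at 90.5 RPKM against 22.8 RPKM.

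Xenobiotic metabolism pointed both ways, with 12 of 27 members at least 2-fold higher in the brain-labelled library and 7 in the kidney-labelled one. The former compares with 19.0% of all mRNAs, and the latter was near the 26.0% of all mRNAs. Cyp2b10, a cytochrome P450, had 32.3 RPKM against 0.339 RPKM from 3 reads (log2 ratio 4.64), and Sult1a1, a sulfotransferase, had 0.537 RPKM from 5 reads against 129 RPKM (log2 ratio -6.40). Abcb1a, the P-glycoprotein efflux pump, was within 2-fold at 553 RPKM against 324 RPKM. Among absorbed metals, Slc40a1, the iron exporter ferroportin, had 0.168 RPKM from 3 reads against 26.3 RPKM (log2 ratio -4.55), while 7 of 9 members of the iron and calcium list lay within 2-fold.

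**Figure D4:**
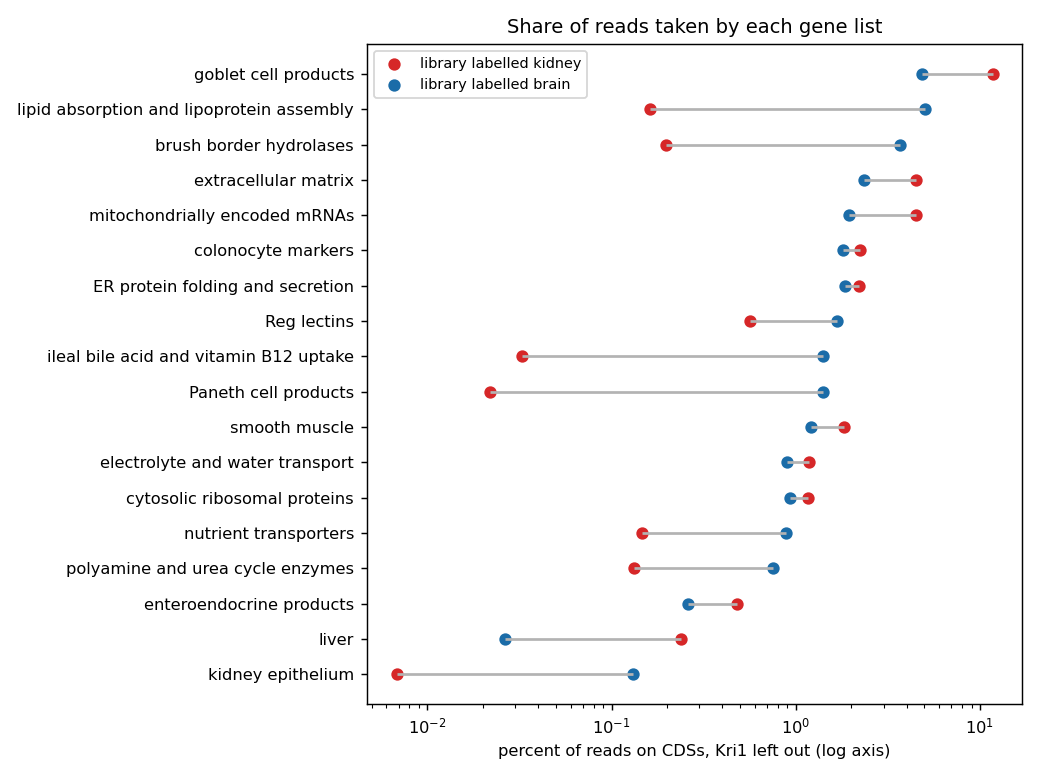
Percent of all reads on CDSs, Kri1 left out, taken by each gene list in the brain-labelled library (blue) and the kidney-labelled library (red), on a log axis. Goblet cell products hold 4.84% and 11.7%, brush border hydrolases 3.69% and 0.199%, and Paneth cell products 1.41% and 0.0219%.

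The tissue around the epithelium was present in both libraries. Smooth muscle mRNAs were at least 2-fold higher in the kidney-labelled library in 5 of 16 members, a share near the 26.0% of all mRNAs, with a median log2 ratio of -0.62. Myh11, smooth muscle myosin, had 898 RPKM against 1406 RPKM, and Actg2, the enteric smooth muscle actin, had 254 RPKM against 747 RPKM (log2 ratio -1.55). Extracellular matrix mRNAs were at least 2-fold higher in the kidney-labelled library in 8 of 16 members, beside 26.0% of all mRNAs. With Kri1 kept in the totals 4 were. Col3a1 had 1843 RPKM against 3582 RPKM (log2 ratio -0.96). The brain list, which the label would lead to, had 1 of 12 members at least 2-fold higher in the brain-labelled library. In the kidney-labelled one it had 5, beside 19.0% and 26.0% of all mRNAs. It took 0.0123% and 0.0251% of their reads against 2.59% in the small-intestine-labelled library. Genes of the cell cycle had 4 of 20 members past 2-fold toward the brain-labelled library, a share near the 19.0% of all mRNAs. Toward the kidney-labelled library they had 1, beside 26.0% of all mRNAs. Enzymes of cholesterol synthesis had 1 and 3 of 18, both under the 19.0% and 26.0% of all mRNAs. The first became 5 with Kri1 kept in the totals.

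Mitochondrially encoded mRNAs were at least 2-fold higher in the kidney-labelled library in 9 of 10 members, beside 26.0% of all mRNAs. With Kri1 kept in the totals 4 were. They took 1.95% of the reads of the brain-labelled library and 4.49% of those of the kidney-labelled one. mt-Atp6, a subunit of ATP synthase, had 19099 RPKM against 39112 RPKM, the highest level in the kidney-labelled library. Klk1, a tissue kallikrein and next in that library, had 22467 RPKM there, 3435 RPKM in the brain-labelled library and 14493 RPKM in the colon-labelled library. Only 47.6% of its 29-base stretches were unique, so its level is uncertain. Other mRNAs among the most densely translated were S100a10, a partner of annexin, at 15420 RPKM against 7640 RPKM, and Rpl41, a ribosomal protein, at 4389 RPKM against 13205 RPKM.

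Ribosomal protein mRNAs, whose products are needed in equal numbers, give a measure of spread that has no obvious tie to gut region. Over 70 compared, the median log2 ratio was -0.36 and the SD 0.863, and values ran from -3.40 for Rps21 (1 and 20 reads) to 1.26 for Rps24. Of these, 20 were at least 2-fold higher in the kidney-labelled library, a share near the 26.0% of all mRNAs, or 9 with Kri1 kept in the totals. In the brain-labelled library 2 were, beside 19.0% of all mRNAs. The median width of their counting intervals was 0.39, so the spread between mRNAs of 1 complex was wider than counting error. Log2 ratios from -3.40 to 1.26 were therefore within the range seen among ribosomal proteins, while those above 5 in size were outside it. The range reached farther toward the kidney-labelled library, and it covered the median of the goblet cell products, -1.94.

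Levels in the other 4 libraries separated both sides. Of the 252 mRNAs at least 8-fold higher in the brain-labelled library, 22 (8.73%) reached 25% of that level in 3 or more of the other 4 libraries and 92 (36.5%) stayed under 10% in all 4. Of the 519 at least 8-fold higher in the kidney-labelled library, 296 (57.0%) reached 25% in 3 or more and 54 (10.4%) stayed under 10% in all 4. Most of the latter were therefore low in the brain-labelled library and present widely elsewhere. Polr2l, a subunit shared by the RNA polymerases, was 1 of them, with 0.477 RPKM from 1 read in the brain-labelled library and 93.1 to 1771 RPKM in the other 5.

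Loss of common mRNAs was also counted directly. Of 1928 mRNAs with at least 20 RPKM in each of the 4 libraries outside the comparison, 41 (2.13%) were under 1 RPKM in the brain-labelled library and 1 (0.0519%) in the kidney-labelled one. Short mRNAs were over-represented among large differences: the fifth of mRNAs with the shortest CDSs, up to 813 bases, had a median log2 ratio of -0.33 and 51.8% past 2-fold, and the fifth with the longest had -0.14 and 32.3%. The cause of these losses was not tested. When mRNAs past 2-fold that reached 25% of their higher level in 3 or more other libraries were left out, 1186 were higher in the brain-labelled library and 1044 in the kidney-labelled one, a setting added after the data were seen.

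**Figure D5:**
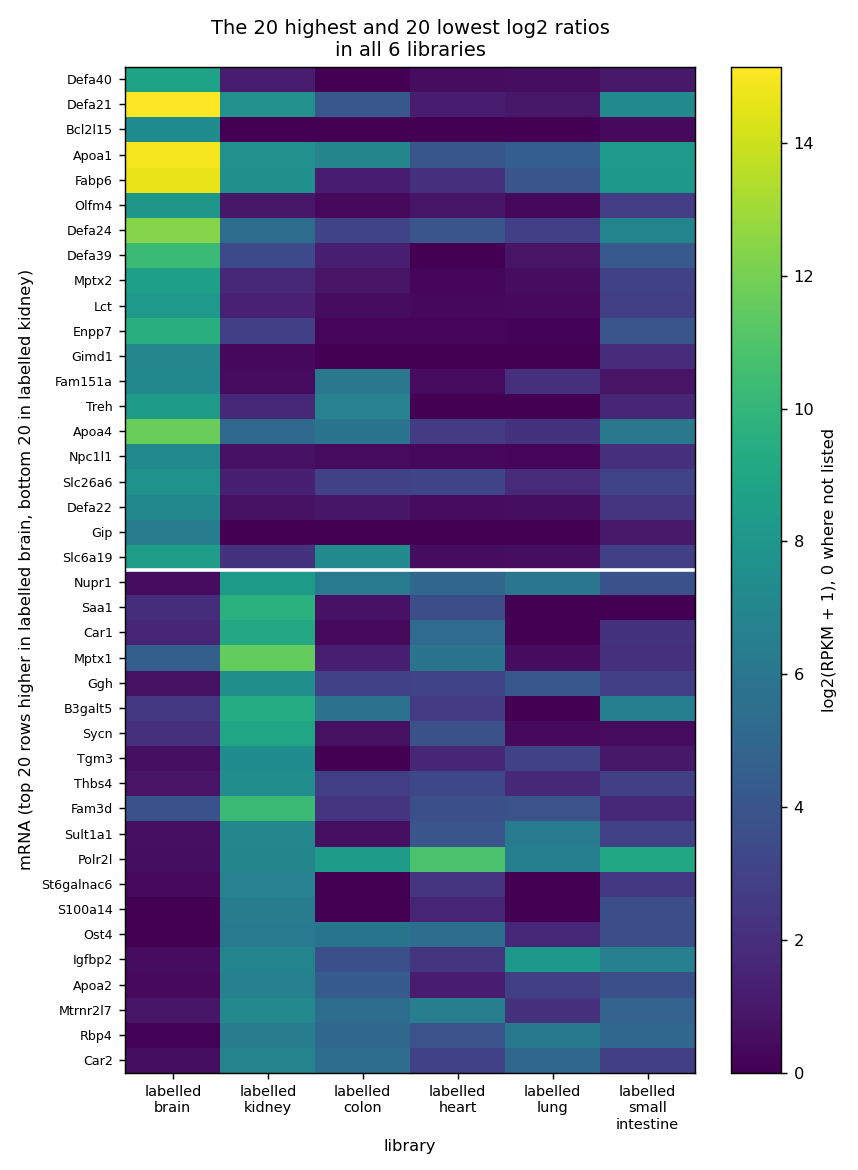
Density as log2(RPKM + 1) in all 6 libraries, 0 where not listed, of the 20 mRNAs with the highest (top rows) and the 20 with the lowest (bottom rows) log2 ratio. Of the top 20, 17 stay under 10% of the level of the brain-labelled library in all 4 libraries outside the comparison, while 9 of the bottom 20 do so for the kidney-labelled library.

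mRNAs with the widest gaps were also set against the other 4 libraries, which did not enter their choice. The 48 mRNAs with a log2 ratio of 5 or more and at least 100 reads had, relative to their level in the brain-labelled library, a median of 0.106% in each of the libraries labelled heart and lung, 0.299% in that labelled colon and 1.73% in that labelled small intestine. The 64 with a log2 ratio of -5 or less and at least 100 reads had, relative to their level in the kidney-labelled library, a median of 18.5% for the colon label, 6.71% for heart, 6.81% for lung and 7.65% for small intestine. Liver mRNAs were at least 2-fold higher in the kidney-labelled library in all 8 members compared, with Alb, serum albumin, at 29.4 RPKM against 812 RPKM and at 403 RPKM in the colon-labelled library. The whole liver list took 0.0265% and 0.237% of the reads. Apoa2, Rbp4 and Igfbp2, which the liver also secretes, were among the 20 mRNAs with the lowest log2 ratios, and the part of the liver signal in them was not tested.

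Among the 20 highest log2 ratios, genes outside the lists were Bcl2l15 (871 reads and none, at least 164.5-fold), Gimd1 (871 reads and 1) and Fam151a, a kidney and gut membrane protein with 133 RPKM against 0.371 RPKM. Among the 20 lowest were Nupr1, a stress-induced chromatin protein, with 0.400 RPKM from 1 read against 308 RPKM, and Sycn, syncollin of secretory granules, with 3.34 RPKM against 493 RPKM. Fam3d, a gut-secreted cytokine-like protein, had 13.1 RPKM against 1288 RPKM. Thbs4, a matrix protein, had 0.731 RPKM against 168 RPKM.

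mRNAs listed in only 1 of both libraries had no ratio. With at least 10 reads there were 140 in the brain-labelled library and 1360 in the kidney-labelled one. The brain-labelled library, though it held more reads, had reads on 11520 mRNAs and the kidney-labelled one on 14109. Being listed only in the kidney-labelled library therefore does not by itself set an mRNA apart. The cause of the unequal numbers was not tested. The most reads in the former were those of Slc5a4b, a relative of the sodium-glucose transporters, with 502 reads and 24.3 RPKM, then AY761185, with 473 reads, and Bst1, a cell surface enzyme, with 443. In the latter they were those of Aqp8 and Best2, then Slc37a2, a sugar-phosphate exchanger, with 543 reads. Several liver mRNAs followed, among them Fgb, a fibrinogen chain, with 328 reads and 38.5 RPKM.

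The proteins made also differed in composition. Weighted by reads, threonine was 5.80% of the codons translated in the brain-labelled library and 6.78% in the kidney-labelled one, and proline 5.49% and 6.28%. Most of the threonine difference was Muc2, whose repeats are rich in that residue: without it the values were 5.61% and 5.84%. Glutamate went the other way, at 7.37% and 6.78%. The share of codons ending in G or C, weighted by reads, was 56.1% and 54.6%.

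In the upstream sequences of the compared mRNAs, available for 10914, the GATA letters were present in 7.77%. They were present in 13.9% of the mRNAs at least 8-fold higher in the brain-labelled library and in 7.17% of those at least 8-fold higher in the kidney-labelled one. That contrast was not seen among mRNAs past 2-fold that stayed under 10% in all 4 other libraries, of which 15.5% and 16.5% held the letters. The HNF4 letters were present in 1.40% of all, 4.38% of those 8-fold higher in the brain-labelled library and 2.33% of those in the kidney-labelled one. For CDX the shares were 8.02%, 8.76% and 9.30%, and for AP-1 4.50%, 7.97% and 5.04%. The mean GC content of these windows also differed, at 56.7%, 52.8% and 55.9%, and its part in the shares was not tested.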

How the data were processed

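The authors deposited 1 table of RPKM values per library, in which each row names a transcript with its gene and its CDS limits. Their Methods, written for macrophage libraries of the same study and taken to hold here, trimmed adapters with Cutadapt, discarded reads under 15 nt, aligned with STAR to the longest-CDS mRNA of each gene (GRCm39), and left out multi-mapped reads and those with more than 2 mismatches. Tool versions were not given in the sources used here.

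RPKM times CDS length, divided by the smallest product above 0, gave whole reads for 100% of values (tolerance 0.01). RPKM was recomputed without Kri1. The log2 ratio used a pseudocount of 1 RPKM, so it understates differences of weakly read mRNAs, and an mRNA counted as higher at 2-fold. Intervals are exact binomial (Clopper-Pearson, 95%) on the split of an mRNA's reads, and for the median over mRNAs an order-statistic interval. Reads carry no molecular identifiers, so intervals and the floor of 3 reads cover counting error only. Symbols and coordinates come from GENCODE M39 (GRCm39), which matched 18424 of 18437 mRNAs. Where an mRNA was listed in 1 library only, no ratio was formed.

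The members, 41 gene lists and tests were chosen with earlier results of these data known, and 13 lists were added after the values were seen. Named by rule were the 20 highest and 20 lowest log2 ratios, the 10 highest levels in each library, the 10 mRNAs with most reads listed in 1 library only, and for each list the 4 highest levels and both extremes of the ratio, with every Hox gene and regional factor. Other named members were picked after their values were seen. Some items that the rule names are not reported here. The scripts were tested on simulated data. The macrophage libraries were not analysed here. Computation used pandas 2.3.3, numpy 2.4.6 and scipy 1.17.1 under Python 3.11.15, and plots matplotlib 3.10.9.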

Additional observations from a re-analysis of the deposited data

How the results depend on the processing

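Under 12 alternatives and 2 chosen after seeing the data, no gene list median or named mRNA at least 2-fold from 0 changed sign. The median log2 ratio was 0.045 with at least 10 reads in both libraries, 0.119 with at least 100 reads in either, 0.209 with Kri1 kept in the totals, 0.000 when centred, -0.007 with TMM factors, -0.118 with totals without Kri1 and mitochondrially encoded mRNAs, -0.166 with totals without Kri1 and the 20 mRNAs with most reads, and -0.267 over mRNAs listed in either library. A pseudocount of 5 RPKM gave 1323 mRNAs higher in the library labelled brain and 1669 in that labelled kidney. The count for the library labelled kidney was 1548 with at least 10 reads in both libraries, when 1627 were higher in that labelled brain, and 1428 with at least 100 reads in either. Over mRNAs listed in either library the counts were 2229 and 4090. Without mRNAs at a like level in the other libraries the counts were 1186 and 1044 and the median 0.044. Of 741 alternative values of gene list medians 105 left the order-statistic interval of the reported median. Lists with few members compared had no such interval, so nearly any shift of theirs was counted. Of 3459 values of named mRNAs 545 left the counting interval of the reported log2 ratio. The sign changed in 34 of the 741 values, over 13 lists with medians under 1 in size. It changed in 28 of the 3459 values, over 18 mRNAs with log2 ratios of at most 0.33 in size. With at least 10 reads in both libraries the median of the enteroendocrine list went from 0.21 to -0.59 and that of the Slc26 exchangers from 0.91 to -1.22. The cause of these changes was not tested. No paired analysis was possible because each label had 1 library. The precision is limited by that and, for mRNAs with few reads, by depth.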
